A study of Mus musculus with 12 samples.

Results

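Nuclear receptors and the aryl hydrocarbon receptor are transcription factors through which hepatocytes read drugs, bile acids, sterols and hormones. Nr1i3 (the constitutive androstane receptor, CAR), Nr1i2 (the pregnane X receptor, PXR) and Ahr (the aryl hydrocarbon receptor, AHR) control drug-metabolizing enzymes. Nr1h4 (the farnesoid X receptor, FXR) senses bile acids and induces Nr0b2 (SHP), a repressor of bile acid synthesis. Nr1h3 (the liver X receptor alpha) senses oxysterols, Thrb is the main thyroid hormone receptor of the liver and Esr1 is the estrogen receptor alpha. Rxra (the retinoid X receptor alpha) is the partner with which CAR, PXR, FXR, liver X and thyroid hormone receptors bind DNA as heterodimers, whereas AHR pairs with Arnt. These 9 genes were taken by symbol from the 35709 Ensembl gene identifiers of the deposited table, of which 35574 had a symbol. Each of the 9 was found as 1 row, and all 9 passed the filter on low values, with 20244 genes tested.

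RNA was sequenced from isolated hepatocytes in 4 groups of 3 libraries, and all mice were C57BL/6J males, 8 to 10 weeks old. Alb-R3 mice, labelled as lacking the fibroblast growth factor receptor gene Fgfr3 in hepatocytes, were given CCl4 (carbon tetrachloride, a liver toxicant, injected once into the peritoneum at 0.4 mg/g, dissolved in olive oil) in the Alb-R3 CCl4 group. Alb-Cre mice, named for a Cre recombinase driven by the albumin promoter, which is active in hepatocytes, received the same dose in the Alb-Cre CCl4 group. Alb-R3 and Alb-Cre mice injected with olive oil formed the Alb-R3 oil and Alb-Cre oil groups, and all 4 groups were taken at 48 h. Nothing in the labels ties each library to its own animal, and p-values therefore measure a spread between libraries that may be technical.

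The libraries held between 28015141 and 39607185 estimated reads. Mitochondrially encoded genes took 32.3% of the normalized counts in Alb-R3 CCl4 replicate 1 and 6.22% to 12.8% in the other 11 libraries, and values without that library are given beside the results that it moved most. The 8 hepatocyte markers made up 8.13% to 14.4% of the normalized counts of a library, against at most 0.0392% for the 11 Kupffer cell and macrophage markers. Alb alone took 3.19% to 8.58%, so these shares do not measure how pure the hepatocytes were. Fgfr3 had 478, 372 and 382 normalized counts in Alb-R3 CCl4 libraries and 951, 706 and 753 in Alb-Cre CCl4 libraries, a log2 fold change of -0.96 ± 0.24 (SE) that did not pass (limma adjusted p = 0.252). These groups did not overlap, as for 5.86% of all tested genes in that direction. After oil Fgfr3 had 523, 650.5 and 1109 in the libraries labelled Alb-R3 and 735, 888 and 988 in Alb-Cre libraries (limma adjusted p = 1), so the gene labelled as deleted did not separate the genotypes after oil. Fgfr3 was lower after CCl4 than after oil in Alb-R3 (-0.82 ± 0.24, limma adjusted p = 0.034). In Alb-Cre it did not pass (-0.12, adjusted p = 0.868), nor did the interaction (-0.71, adjusted p = 0.702). The deposited value is 1 per gene, and transcripts lacking the deleted exons may still be counted.

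The promoters of 4 genes are shown because CAR and PXR were lower after CCl4 in Alb-R3 with all libraries, FXR was once Alb-R3 CCl4 replicate 1 was left out, and SHP is the best-known FXR target. Each window is a RefSeq promoter of GRCm38.p6, from 250 bases before to 50 bases after the annotated start, written on the gene's own strand. Capitals mark matches on either strand to the nuclear receptor half-site AGGTCA, its variant with the letters AGTTCA, the core GCGTG that AHR and Arnt bind, the TATA box as TATAAA, the CCAAT box and the GC box as GGGCGG.
Nr1i3, chr1:171213720-171214019, plus strand: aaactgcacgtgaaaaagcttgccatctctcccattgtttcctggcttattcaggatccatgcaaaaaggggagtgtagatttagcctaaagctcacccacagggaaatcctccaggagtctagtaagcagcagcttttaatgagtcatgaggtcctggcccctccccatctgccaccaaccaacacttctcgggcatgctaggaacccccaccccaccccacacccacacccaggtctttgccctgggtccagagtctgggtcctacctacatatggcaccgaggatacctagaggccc
Nr1i2, chr16:38294775-38295074, minus strand: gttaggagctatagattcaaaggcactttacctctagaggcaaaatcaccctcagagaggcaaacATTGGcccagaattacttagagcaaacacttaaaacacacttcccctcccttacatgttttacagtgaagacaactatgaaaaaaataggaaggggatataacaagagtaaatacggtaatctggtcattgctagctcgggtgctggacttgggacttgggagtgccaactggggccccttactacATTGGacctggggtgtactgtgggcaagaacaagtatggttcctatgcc
Nr1h4, chr10:89506609-89506908, minus strand: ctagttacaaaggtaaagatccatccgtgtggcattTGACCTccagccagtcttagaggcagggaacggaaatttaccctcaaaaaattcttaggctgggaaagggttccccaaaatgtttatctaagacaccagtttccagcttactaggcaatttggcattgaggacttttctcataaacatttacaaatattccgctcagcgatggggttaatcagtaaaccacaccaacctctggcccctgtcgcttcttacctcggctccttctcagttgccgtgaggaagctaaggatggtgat
Nr0b2, chr4:133553126-133553425, plus strand: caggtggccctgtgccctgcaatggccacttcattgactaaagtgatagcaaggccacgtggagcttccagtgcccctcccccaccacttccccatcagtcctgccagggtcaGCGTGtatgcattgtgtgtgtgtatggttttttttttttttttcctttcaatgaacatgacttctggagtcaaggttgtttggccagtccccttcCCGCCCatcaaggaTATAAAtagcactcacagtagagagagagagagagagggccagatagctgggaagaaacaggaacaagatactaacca

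The Nr1i3 window held none of these letters, and the Nr1i2 window held the CCAAT box on the minus strand at -185 and 2, counted from the start. The Nr1h4 window held 1 AGGTCA, on the minus strand at -214. It lies within the gene (chr10:89454234-89533585), at an internal start, and the gene's upstream end was not covered. The Nr0b2 window held the AHR core at -137, a GC box on the minus strand at -42 and a TATA box at -28. Of the 12 RefSeq windows found for 8 of the members, 3 held AGGTCA (16.3% of all 32851 windows), 1 held its variant (13.99%), 3 held the AHR core (32.4%), 2 held a TATA box (13.6%), 2 held a CCAAT box (37.4%) and 3 held a GC box (35.7%). The second Rxra window held AGGTCA on both strands, at -87 and -48, and the first Thrb window held AGGTCA at -184 together with 3 copies of the AHR core. Base composition differed between windows, also of 1 gene: the first Rxra window was 83.0% G or C and the second 54.3%, and the first Thrb window was 72.7% and the second 46.0%. Nr1i2 had 45.3%, Nr1h4 45.7% and Nr1i3 54.0%, with a median of 52.7% over all windows. A match describes the letters in the window and does not show binding.

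The question put to the CCl4 and oil libraries was how each genotype's hepatocytes responded to the toxicant. In Alb-R3 hepatocytes CAR and PXR were lower after CCl4 than after oil, and the other 7 genes did not pass. In Alb-Cre hepatocytes none of the 9 passed. Of all tested genes, 17.8% passed in Alb-R3 (6.92% lower) and 4.45% in Alb-Cre (0.988% lower). An unadjusted limma p under 0.05 was found for 6227 of the 20244 genes in Alb-R3 and 3458 in Alb-Cre. The median log2 fold change of the 9 genes was -0.32 in Alb-R3 and -0.31 in Alb-Cre, against 0.00 and 0.02 over all tested genes. In each genotype 8 of the 9 values were below 0 and Esr1 was above it. That count depended on the scaling in Alb-R3: it was 6 with quantile normalization, 5 with the FPKM columns and 2 with equal totals without mitochondrial genes, and in Alb-Cre it was 8, 6 and 6. The last scaling moved the median of all genes by 0.37 in Alb-R3 and 0.20 in Alb-Cre, and the FPKM columns by 0.23 and 0.22. Relative to the median gene, 8 of 9 members were lower with each of these scalings in both genotypes, except with quantile normalization in Alb-R3, where 5 were.

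**Figure D1:**
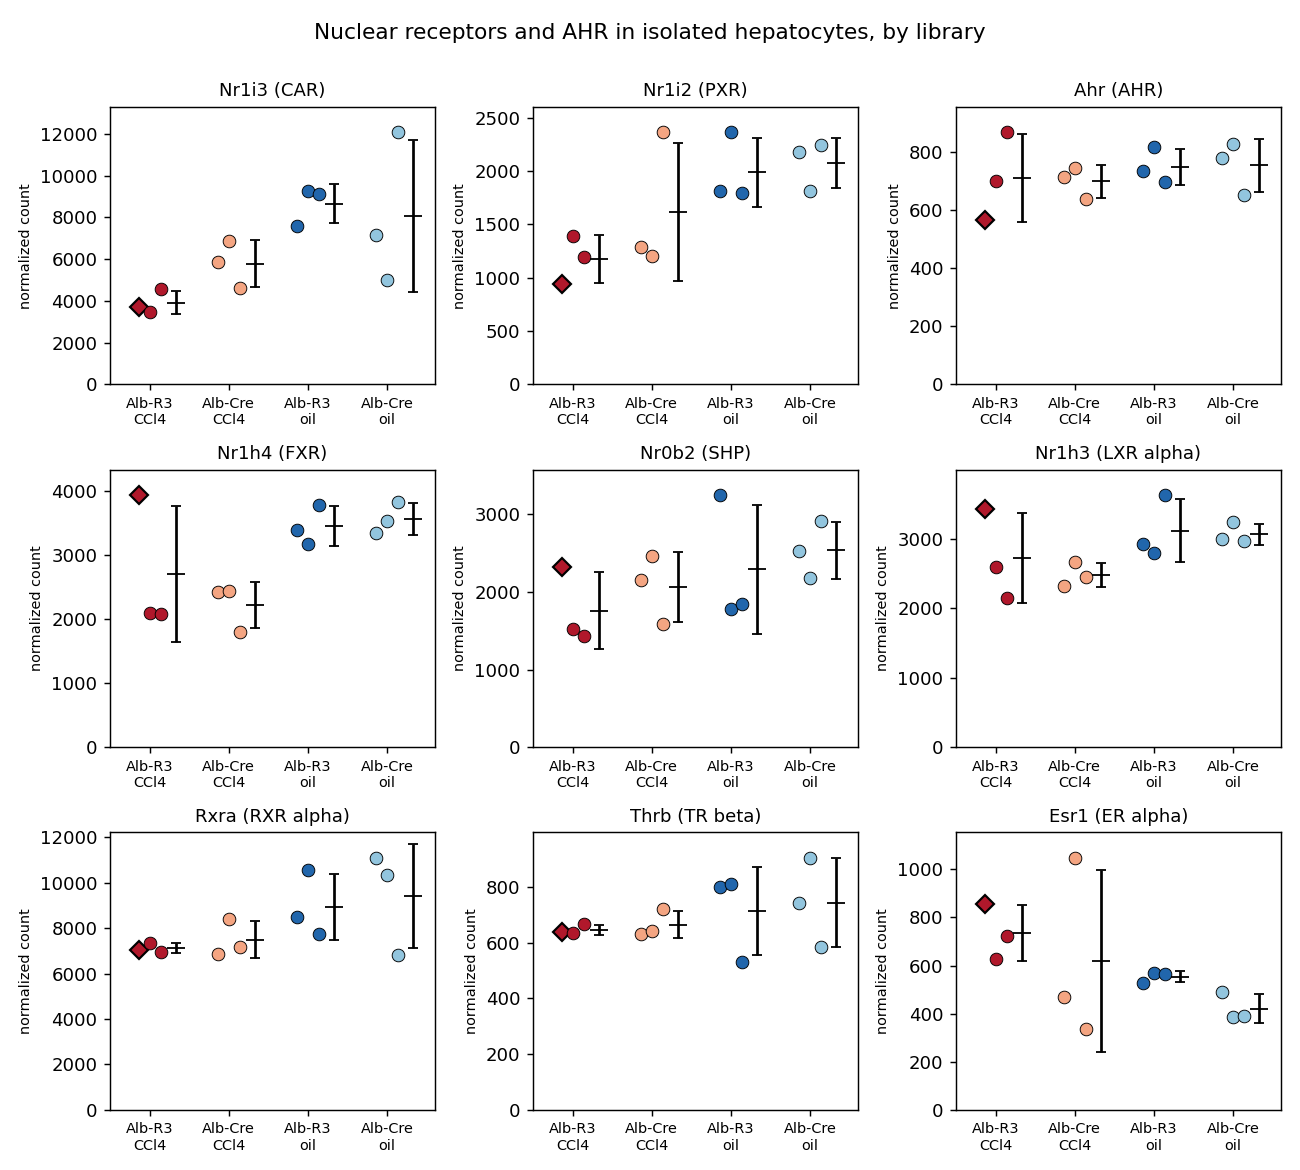
Normalized counts (vertical axes, from 0) of the 9 genes in the 12 libraries, by group; each point is a library, the diamond is Alb-R3 CCl4 replicate 1, and bars are the mean ± SD of 3 libraries. The 3 Alb-R3 CCl4 values of Nr1i3 lie below all Alb-R3 oil values, and the diamond is the highest of its group for Nr1h4, Nr0b2, Nr1h3 and Esr1.

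Nr1i3 (CAR; ENSMUSG00000005677, chr1:171213970-171220701, plus strand) showed the largest difference among the members. It had 3716, 3483 and 4555 normalized counts in Alb-R3 CCl4 libraries, against 7578, 9256 and 9144 in Alb-R3 oil libraries. All 3 CCl4 values lay below all 3 oil values, with means of 3918 ± 564 and 8659 ± 938 (SD, n = 3 each). The log2 fold change was -1.15 ± 0.27 (SE; 2.22-fold lower; limma adjusted p = 0.0111). Alb-R3 CCl4 replicate 1 was in the middle of its group for CAR, and without it the change was -1.11 (limma adjusted p = 0.0217). The call held in 22 of 24 alternatives and was lost with quantile normalization (-0.84, limma adjusted p = 0.0559) and with equal totals without mitochondrial genes (-0.73, adjusted p = 0.0631), while relative to the median gene its change lay between -1.15 and -0.78 in each of the scalings tried. In Alb-Cre libraries CAR had 5871, 6859 and 4629 normalized counts after CCl4 and 7134, 5011 and 12080 after oil. These groups overlapped, since the oil libraries spread from 5011 to 12080, and the change of -0.40 ± 0.27 did not pass (95% interval -0.99 to 0.18; limma adjusted p = 0.508). Nr1i3 shares 4691 bases with Tomm40l on the opposite strand, and the sources used here do not say whether counting used strand. Tomm40l had between 231 and 482 normalized counts in the 12 libraries.

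Nr1i2 (PXR; ENSMUSG00000022809, chr16:38248323-38294824, minus strand) had 939, 1387 and 1191 normalized counts in Alb-R3 CCl4 libraries, against 1812, 2362 and 1791 in Alb-R3 oil libraries. The groups did not overlap, and the log2 fold change was -0.77 ± 0.24 (SE, n = 3 each; 1.70-fold lower; limma adjusted p = 0.0437). This call was near the threshold and held in 9 of 24 alternatives. It was lost without Alb-R3 CCl4 replicate 1, the lowest of the 12 libraries (-0.62, limma adjusted p = 0.116), and also when replicate 3 of the same group (adjusted p = 0.0788), Alb-R3 oil replicates 1, 2 and 3 (0.0831, 0.155 and 0.068), Alb-Cre CCl4 replicate 1 (0.0503) and Alb-Cre oil replicates 1 and 2 (0.0596 and 0.0511) were left out 1 at a time. Among the other settings, those that lost it included quantile normalization (limma adjusted p = 0.0824), equal totals without mitochondrial genes (0.331), the FPKM columns (0.249), no trend (0.0944), no filter (0.0641) and library weights (0.0604). Among Alb-Cre libraries PXR had 1291, 1199 and 2361 normalized counts after CCl4 and 2178, 1807 and 2239 after oil. Alb-Cre CCl4 replicate 3 exceeded all 3 oil libraries while the other 2 lay below them, and the change of -0.42 ± 0.24 did not pass (95% interval -0.94 to 0.10; limma adjusted p = 0.422).

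Ahr (ENSMUSG00000019256, chr12:35497974-35535038, minus strand) had 566, 702 and 869.6 normalized counts in Alb-R3 CCl4 libraries, against 735, 818 and 698 in Alb-R3 oil libraries. Alb-Cre libraries had 717, 748 and 638 after CCl4 and 782, 829 and 654 after oil. The groups overlapped in both genotypes, and the 95% intervals of the log2 fold change ran from -0.47 to 0.28 in Alb-R3 and from -0.48 to 0.27 in Alb-Cre. The highest and the lowest of the 12 libraries were both in the Alb-R3 CCl4 group, with replicate 1 lowest. Of 7 tested partners of AHR, 1 rose in each genotype: Hsp90aa1, a chaperone that holds unliganded AHR in the cytosol. It had 6264, 8878 and 6981 normalized counts in Alb-R3 CCl4 libraries, against 3766, 2756 and 2840 in Alb-R3 oil libraries, a log2 fold change of 1.24 ± 0.23 (limma adjusted p = 0.00291). Alb-Cre libraries had 5411, 6784 and 7458 after CCl4, against 2286, 3957 and 2405 after oil, a change of 1.22 ± 0.23 (limma adjusted p = 0.00713). The groups were apart in both genotypes, and both calls held in each of the 24 alternatives. Arnt, the DNA-binding partner of AHR, chosen after its values were seen, had log2 fold changes of 0.03 in Alb-R3 (limma adjusted p = 0.952) and 0.36 in Alb-Cre (adjusted p = 0.41) that did not pass.

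Targets of these 3 receptors moved in both directions in Alb-R3. Of 32 tested PXR and CAR target genes, 3 rose and 6 fell, with a median of -0.27; in Alb-Cre none rose and 1 fell, with a median of -0.19. Gsta1, a glutathione transferase that is also an AHR target, had 617, 4722 and 2751 normalized counts in Alb-R3 CCl4 libraries, against 147, 137.5 and 181 in Alb-R3 oil libraries (3.69 ± 0.81, and 4.54 without replicate 1; limma adjusted p = 0.00735 and 0.00109). The efflux pump gene Abcc4 rose by 2.88 ± 0.52 (limma adjusted p = 0.0023), with 88.7, 60.8 and 132 against 13.1, 18.1 and 5.91 normalized counts. For both genes every CCl4 library lay above every oil library, and the calls held in each of the 24 alternatives. Cyp2c37, a cytochrome P450, had 60.6, 1357 and 2043 normalized counts in Alb-R3 CCl4 libraries and 6944, 7344 and 6731 in Alb-R3 oil libraries. Its change was -3.66 ± 0.92 (limma adjusted p = 0.0155) and -2.07 without Alb-R3 CCl4 replicate 1 (adjusted p = 0.000693). Ugt1a1, which conjugates bilirubin, fell as well (-1.63; limma adjusted p = 0.0128), also without that library (-1.01; adjusted p = 0.00601). Cyp2c54 and Cyp2c29 also passed downward (-2.67 and -2.12, and -1.32 and -1.08 without that library) and Abcb1a, the P-glycoprotein pump, upward (1.88, and 2.31 without it), but these calls depended on single libraries. That of Cyp2c54 was lost without any 1 of the 3 Alb-R3 oil libraries (limma adjusted p from 0.0785 to 0.0876). That of Abcb1a was lost without Alb-R3 oil replicate 1 (0.0659) or Alb-R3 CCl4 replicate 3 (0.068). That of Cyp2c29 was lost without any 1 of the 6 oil libraries, Alb-Cre CCl4 replicate 1 or Alb-R3 CCl4 replicate 1 (limma adjusted p from 0.0579 to 0.122). Quantile normalization also lost Cyp2c54 (limma adjusted p = 0.0567), Abcb1a (0.0883) and Cyp2c29 (0.175). The FPKM columns lost Cyp2c54 (0.0689), Cyp2c29 (0.103) and Ugt1a1 (0.0547), and equal totals without mitochondrial genes lost Cyp2c29 (0.08). The Cyp2c, Gsta and Ugt1a families hold near-identical copies or shared exons, so the split of reads between their members is uncertain. In Alb-Cre the gene that passed was Cyp2a5 (-4.36 ± 1.09; limma adjusted p = 0.0382), a call lost without any 1 of the 6 oil libraries, Alb-Cre CCl4 replicates 1 and 2 or Alb-R3 CCl4 replicate 2 (adjusted p from 0.0529 to 0.126).

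The classical reporters of CAR, PXR and AHR, Cyp2b10, Cyp3a11 and Cyp1a2, were chosen after their values were seen, because Alb-R3 CCl4 replicate 1 stood apart in all 3. Cyp2b10 had 46.4, 412 and 806 normalized counts in Alb-R3 CCl4 libraries, against 241, 195 and 297 in Alb-R3 oil libraries. Replicate 1 was below every oil library and the other 2 were above them, so the change was 0.05 ± 0.72 with all libraries (limma adjusted p = 0.973) and 1.26 ± 0.31 without it (adjusted p = 0.0148). Cyp3a11 had 31870, 156900 and 146300 normalized counts in Alb-R3 CCl4 libraries and 72400, 89160 and 82550 in Alb-R3 oil libraries, and did not pass in either fit (0.15, limma adjusted p = 0.898, and 0.90 without the library, adjusted p = 0.192). Cyp1a2 had 2443, 28530 and 23140 normalized counts after CCl4 and 27750, 30790 and 26480 after oil in Alb-R3, a change of -1.27 with all libraries (limma adjusted p = 0.222) and -0.14 without replicate 1 (adjusted p = 0.767). In Alb-Cre the CCl4 libraries had 948, 751 and 474.5 normalized counts of Cyp2b10 and the oil libraries 368, 454 and 414, without overlap, and the change of 0.76 did not pass (limma adjusted p = 0.672).

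Of 12 tested AHR target genes, 2 rose and 1 fell in Alb-R3, and none passed in Alb-Cre, where 1 had an unadjusted limma p under 0.05, Tiparp, a feedback repressor of AHR (-0.62 ± 0.23; adjusted p = 0.168). Cyp1a1, the most AHR-dependent of them, had 20.7, 103 and 134 normalized counts in Alb-R3 CCl4 libraries and 9.96, 21.8 and 19.0 in Alb-R3 oil libraries, a change of 1.98 ± 0.57 (limma adjusted p = 0.0295). Replicate 1 fell among the oil libraries, and without it the change was 2.79 (limma adjusted p = 0.00028). The call was lost without Alb-R3 CCl4 replicate 2 (0.0966) or 3 (0.112) and without Alb-R3 oil replicate 1 (0.115) or 3 (0.056). Quantile normalization lost it as well (limma adjusted p = 0.181). The second gene that rose was Gsta1, described above, and the one that fell was Lcat, which esterifies plasma cholesterol (-0.89; limma adjusted p = 0.0161; lost without Alb-R3 oil replicate 2, 0.0559, or Alb-R3 CCl4 replicate 3, 0.0596). The Lcat call was also lost with quantile normalization and with equal totals without mitochondrial genes (limma adjusted p = 0.108 in both). In the fit that left out Alb-R3 CCl4 replicate 1, 7 PXR and CAR targets rose and 3 fell in Alb-R3, where the list's median was then 0.39, and 4 fell in Alb-Cre, Cyp2c37, Cyp2c54, Cyp2a5 and the glutathione transferase Gstt1. In that fit 3 AHR targets rose in Alb-R3, which adds the quinone reductase Nqo1 (2.10 ± 0.40; limma adjusted p = 0.00327). There 9.84% of all tested genes passed upward and 6.21% downward.

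**Figure D2:**
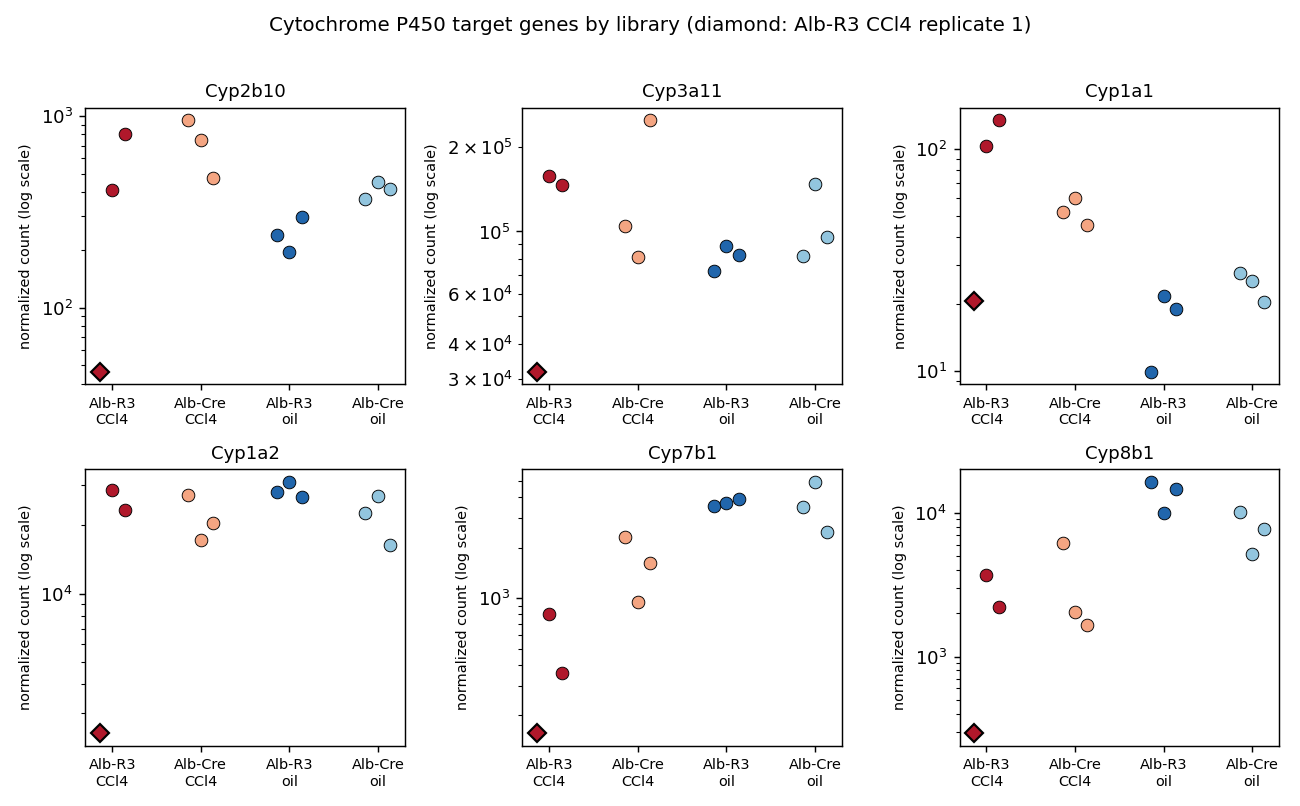
Normalized counts (log scale) of 6 cytochrome P450 genes controlled by CAR, PXR, AHR or FXR in the 12 libraries, by group; each point is a library. The diamond, Alb-R3 CCl4 replicate 1, is the lowest of the 12 libraries for all of them except Cyp1a1, where it lies among the oil libraries with 20.7 normalized counts.

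Nr1h4 (FXR; ENSMUSG00000047638, chr10:89454234-89533585, minus strand) was the member for which Alb-R3 CCl4 replicate 1 mattered most. It had 3935, 2093 and 2082 normalized counts in Alb-R3 CCl4 libraries, against 3385, 3168 and 3781 in Alb-R3 oil libraries. Replicate 1 was the highest of all 12 libraries and the other 2 lay below every oil library. With all libraries the log2 fold change was -0.41 ± 0.23 (95% interval -0.90 to 0.07; limma adjusted p = 0.240), and without replicate 1 it was -0.72 ± 0.16 (adjusted p = 0.00913). In Alb-Cre FXR had 2419, 2440 and 1802 normalized counts after CCl4, against 3339, 3524 and 3826 after oil. These groups did not overlap, and the change of -0.69 ± 0.23 had an unadjusted limma p of 0.00884 and an adjusted p of 0.116. The Alb-Cre difference passed when Alb-R3 CCl4 replicate 1, which enters it through the shared estimate of the spread alone, was left out (-0.69 ± 0.15; limma adjusted p = 0.0102). It also passed in the 6 Alb-Cre libraries alone (adjusted p = 0.0463), where 5.17% of all genes did, and with library weights (-0.67, adjusted p = 0.00691). With those weights FXR also passed in Alb-R3 (-0.63, limma adjusted p = 0.00892), in a fit in which 25.3% of all genes did. In the fit without replicate 1, 16.1% of all tested genes passed in Alb-R3 and 7.22% in Alb-Cre.

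Nr0b2 (SHP; ENSMUSG00000037583, chr4:133553376-133556536, plus strand), the FXR target that lacks a DNA-binding domain, had 2325, 1521 and 1433 normalized counts in Alb-R3 CCl4 libraries, against 3251, 1777 and 1847 in Alb-R3 oil libraries. Alb-Cre libraries had 2148, 2469 and 1581 after CCl4 and 2522, 2182 and 2917 after oil. The groups overlapped in both genotypes, with replicate 1 the highest in both Alb-R3 groups. The changes were -0.36 ± 0.26 in Alb-R3 (95% interval -0.92 to 0.20) and -0.31 ± 0.26 in Alb-Cre (-0.87 to 0.25), and did not pass (limma adjusted p = 0.385 and 0.621). The Alb-R3 change was -0.58 without Alb-R3 CCl4 replicate 1 (limma adjusted p = 0.147), and with library weights it passed (-0.70, adjusted p = 0.0391).

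Of 14 tested genes that FXR induces, a list that holds SHP itself, 1 rose and 4 fell in Alb-R3, with a median of -0.77, and 1 fell in Alb-Cre, with a median of -0.31. Slc27a5, which activates bile acids for conjugation, had 5052, 15640 and 11880 normalized counts in Alb-R3 CCl4 libraries, against 31820, 35230 and 29400 in Alb-R3 oil libraries (-1.71 ± 0.33, and -1.23 without replicate 1; limma adjusted p = 0.00378 and 0.00156). Apoc2, a cofactor of lipoprotein lipase, had 20530, 28950 and 24550 against 9474, 7373 and 12260 normalized counts (1.36 ± 0.25; limma adjusted p = 0.00235). Both pairs of groups were fully apart. Pltp, a phospholipid transfer protein that liver X receptors also induce, fell in both genotypes, with changes of -2.15 ± 0.32 in Alb-R3 (limma adjusted p = 0.000631) and -1.75 ± 0.32 in Alb-Cre (adjusted p = 0.00548). Fetub, which encodes a secreted liver protein, fell as well in Alb-R3 (-1.41; limma adjusted p = 0.00282). These 4 genes kept their calls in each of the 24 alternatives. The uptake transporter gene Slco1b2 fell too (-1.21; limma adjusted p = 0.0184; -0.83 without Alb-R3 CCl4 replicate 1, adjusted p = 0.038), a call lost without Alb-R3 oil replicate 1 (0.0617) or 2 (0.0709). The bile salt export pump Abcb11, the canonical FXR target, had 5900, 15660 and 14650 normalized counts in Alb-R3 CCl4 libraries and 22440, 24500 and 19250 in Alb-R3 oil libraries, a change of -0.99 ± 0.38 that did not pass (limma adjusted p = 0.0911; -0.54 without replicate 1, adjusted p = 0.271); it was chosen after its values were seen.

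Of the 6 genes that FXR and SHP lower, among them enzymes of bile acid synthesis, 3 fell and none rose after CCl4 in Alb-R3, with a median of -1.90 (-0.90 without Alb-R3 CCl4 replicate 1), and in Alb-Cre none passed (1 at an unadjusted limma p under 0.05), with a median of -0.67. Cyp7b1, of the alternative bile acid pathway, had 157, 803 and 359 normalized counts in Alb-R3 CCl4 libraries, against 3543, 3700 and 3916 in Alb-R3 oil libraries. The groups were far apart, with a change of -3.38 ± 0.47 (limma adjusted p = 0.000364), and -2.79 without replicate 1. In Alb-Cre it had 2311, 954 and 1609 after CCl4, against 3500, 4914 and 2485 after oil, also without overlap, and did not pass (-1.20 ± 0.47; limma adjusted p = 0.2), but passed without Alb-R3 CCl4 replicate 1 (adjusted p = 0.049). Cyp8b1, which directs synthesis towards cholic acid, had 293, 3668 and 2194 against 16340, 9911 and 14560 normalized counts, a change of -3.32 ± 0.73 (limma adjusted p = 0.0076) and -2.23 without replicate 1. Both calls held in each of the 24 alternatives. Lipc, the hepatic lipase, had a change of -1.47 (limma adjusted p = 0.0258), a call lost without any 1 of the 3 Alb-R3 oil libraries (0.0721, 0.0749 and 0.0611); without Alb-R3 CCl4 replicate 1 the change was -0.88 (adjusted p = 0.0475). Cyp7a1, the rate-limiting enzyme of the classical pathway, also chosen after its values were seen, had 40.2, 820 and 1552 normalized counts in Alb-R3 CCl4 libraries and 1737, 1395 and 2804 in Alb-R3 oil libraries, and did not pass (-2.34 ± 0.93; limma adjusted p = 0.104; -0.75 without replicate 1, adjusted p = 0.173).

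Nr1h3 (liver X receptor alpha; ENSMUSG00000002108, chr2:91184061-91202834, minus strand) had 3424, 2590 and 2145 normalized counts in Alb-R3 CCl4 libraries, against 2919, 2789 and 3628 in Alb-R3 oil libraries. Alb-Cre libraries had 2321, 2657 and 2444 after CCl4, against 2992, 3233 and 2962 after oil. The Alb-R3 groups overlapped through replicate 1, and the Alb-Cre groups did not overlap. The changes of -0.21 ± 0.18 in Alb-R3 (95% interval -0.59 to 0.17) and -0.31 ± 0.18 in Alb-Cre (-0.69 to 0.07) did not pass (limma adjusted p = 0.458 and 0.422). Without replicate 1 the Alb-R3 change was -0.39 (limma adjusted p = 0.111).

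Of 16 tested liver X receptor targets, 2 rose and 3 fell in Alb-R3, with a median of -0.46, and Pltp alone passed in Alb-Cre. Arl4c, a small GTPase, had 108, 33.7 and 43.3 normalized counts in Alb-R3 CCl4 libraries, against 3.28, 7.93 and 2.37 in Alb-R3 oil libraries (3.45 ± 0.54; limma adjusted p = 0.000839). In Alb-Cre it had 15.6, 12.6 and 19.1 after CCl4 and 8.40, 14.6 and 17.9 after oil, with overlap (0.24 ± 0.54; limma adjusted p = 0.884). The Alb-R3 call held in each of the 24 alternatives. Of the other 3 genes, Mylip, which marks the LDL receptor for degradation, rose by 1.11, and the sterol transporter Abcg8 and the phospholipid-remodelling enzyme Lpcat3 fell (-1.29 and -0.86). The call of Mylip was lost without Alb-R3 CCl4 replicate 1 (limma adjusted p = 0.0844) or 3 (0.0653) or Alb-R3 oil replicate 2 (0.129). That of Abcg8 was lost without Alb-R3 CCl4 replicate 1 (0.0656) or Alb-R3 oil replicate 1 (0.0775) or 2 (0.124), and that of Lpcat3 without either of those oil libraries (0.0791 and 0.0885). Scaling mattered too: quantile normalization lost Mylip (limma adjusted p = 0.267) and Abcg8 (0.056). Equal totals without mitochondrial genes lost Abcg8 (0.103) and Lpcat3 (0.164), as did the FPKM columns (0.132 and 0.177).

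**Figure D3:**
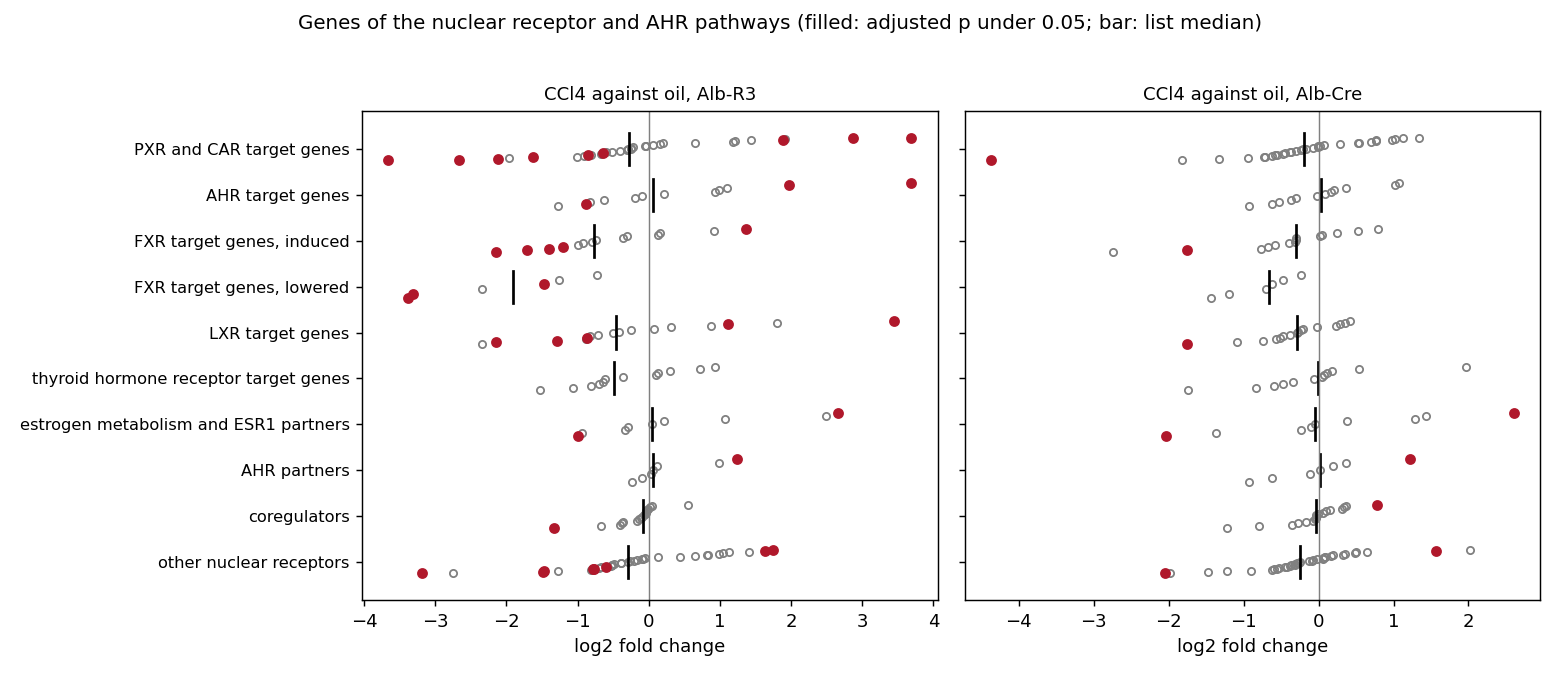
Log2 fold changes of CCl4 against oil (horizontal axes) in Alb-R3 and Alb-Cre for the tested genes of 10 lists around the receptors; each point is a gene, filled where the limma adjusted p was under 0.05, and the bar is the list's median. Of 154 tested genes, 11 rose and 24 fell in Alb-R3, and 4 rose and 4 fell in Alb-Cre. Of all tested genes, 17.8% passed in Alb-R3 (6.92% lower) and 4.45% in Alb-Cre (0.988% lower). Without Alb-R3 CCl4 replicate 1, which is in the plotted fit, 15 of 153 rose and 16 fell in Alb-R3. In Alb-Cre 4 rose and 12 fell in that fit, where 16.1% of all genes passed in Alb-R3 and 7.22% in Alb-Cre.

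Rxra (ENSMUSG00000015846, chr2:27676440-27762957, plus strand), the common partner, had 7026, 7364 and 6965 normalized counts in Alb-R3 CCl4 libraries, against 8510, 10560 and 7752 in Alb-R3 oil libraries. Alb-Cre libraries had 6883, 8427 and 7176 after CCl4 and 11110, 10350 and 6832 after oil. The Alb-R3 groups did not overlap, and Alb-Cre oil replicate 3 was the lowest of the 12 libraries. The changes of -0.32 ± 0.20 in Alb-R3 (95% interval -0.76 to 0.12) and -0.31 ± 0.20 in Alb-Cre (-0.74 to 0.13) did not pass (limma adjusted p = 0.322 and 0.503). With library weights the Alb-Cre change was -0.53 and passed (limma adjusted p = 0.0291), in a fit in which 13.4% of all genes did. Of 18 tested coregulators, which receptors recruit to open or close chromatin, the coactivator Ppargc1b fell in Alb-R3 (-1.33; limma adjusted p = 0.0367). The call of Ppargc1b was lost without any 1 of the 6 Alb-R3 libraries (limma adjusted p from 0.0504 to 0.112).

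Thrb (ENSMUSG00000021779, chr14:17660261-18038090, plus strand) had 639, 633 and 665 normalized counts in Alb-R3 CCl4 libraries, against 798, 811 and 531.5 in Alb-R3 oil libraries. Alb-Cre libraries had 629, 643 and 719 after CCl4 and 743, 905 and 584 after oil. The CCl4 libraries were tight in both genotypes and lay inside the wider range of the oil libraries. The changes were -0.12 ± 0.19 in Alb-R3 (95% interval -0.54 to 0.30) and -0.14 ± 0.19 in Alb-Cre (-0.56 to 0.28). None of 12 tested thyroid hormone receptor targets passed in Alb-R3 (4 at an unadjusted limma p under 0.05) or in Alb-Cre (2), with medians of -0.49 and -0.01. Over all 20244 tested genes, 6227 in Alb-R3 and 3458 in Alb-Cre had such a p. Among these targets the smallest p in Alb-R3 was that of Klf9, a hormone-induced transcription factor (-1.06 ± 0.36; limma adjusted p = 0.0599), and in Alb-Cre that of Hr, a corepressor (1.97 ± 0.60; adjusted p = 0.0914). Dio1, the deiodinase that serves as the classical liver target and was chosen after its values were seen, had 4033, 2669 and 3526 normalized counts in Alb-R3 CCl4 libraries and 6214, 5004 and 5217 in Alb-R3 oil libraries, without overlap (-0.70 ± 0.26; limma adjusted p = 0.0824).

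Esr1 (ENSMUSG00000019768, chr10:4611593-5005614, plus strand) was the member with higher values after CCl4. It had 856, 625.5 and 724.5 normalized counts in Alb-R3 CCl4 libraries, against 528.5, 569 and 564 in Alb-R3 oil libraries. Alb-Cre libraries had 469.6, 1049 and 336 after CCl4 and 489, 384 and 389 after oil. The Alb-R3 groups did not overlap, while the Alb-Cre CCl4 group held both the highest and the lowest value of the 12. The changes of 0.40 ± 0.31 in Alb-R3 (95% interval -0.27 to 1.07) and 0.39 ± 0.31 in Alb-Cre (-0.28 to 1.06) did not pass (limma adjusted p = 0.422 and 0.595), and without Alb-Cre CCl4 replicate 2 the Alb-Cre value was -0.07. Among 9 tested genes of estrogen metabolism and Esr1 partners, Ccnd1, the cyclin D1 gene, rose in both genotypes, by 2.66 ± 0.39 in Alb-R3 (limma adjusted p = 0.000572) and 2.61 ± 0.39 in Alb-Cre (adjusted p = 0.00118). Hsd17b2, which converts estradiol to estrone, fell in Alb-R3, with 3034, 4229 and 4111 normalized counts after CCl4 against 7223, 7101 and 8179 after oil (-0.997 ± 0.18; limma adjusted p = 0.00276). These 3 calls held in each of the 24 alternatives. The membrane estrogen receptor Gper1 also passed downward in Alb-Cre, where it was listed at 0 in all 3 CCl4 libraries and averaged 3.17 after oil, a call lost without any 1 of the 6 Alb-Cre libraries (limma adjusted p from 0.0577 to 0.123).

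Without an overlap between CCl4 and oil libraries, 3 members were lower and 1 was higher in Alb-R3, where 15.5% and 18.1% of all tested genes were, and 2 were lower in Alb-Cre, where 10.4% were. Among 35 tested nuclear receptors outside the members, of 41 listed, 2 rose and 6 fell in Alb-R3 and 1 rose and 1 fell in Alb-Cre. Ppard, a fatty acid sensor, rose by 1.64 ± 0.39 in Alb-R3 (limma adjusted p = 0.0113) and 1.57 ± 0.39 in Alb-Cre (adjusted p = 0.0352). Pparg, the adipogenic receptor, fell in Alb-R3 (-1.49 ± 0.43; limma adjusted p = 0.0288) and in Alb-Cre (-2.04 ± 0.43; adjusted p = 0.0136). Pparg had 70.2, 121 and 162 normalized counts in Alb-R3 CCl4 libraries against 277, 436 and 257 in Alb-R3 oil libraries, and 73.9, 33.2 and 135 in Alb-Cre CCl4 libraries against 295, 291 and 280.4 in Alb-Cre oil libraries, apart in both. The Ppard call was lost in Alb-R3 without Alb-R3 oil replicate 2 (limma adjusted p = 0.0516) and in Alb-Cre without any 1 of the 3 Alb-Cre oil libraries or Alb-Cre CCl4 replicates 1 and 2 (0.0788 to 0.17). That of Pparg was lost in Alb-R3 without Alb-R3 oil replicate 1 (0.0639) or 2 (0.116) or Alb-R3 CCl4 replicate 2 (0.0508), and in Alb-Cre without Alb-Cre oil replicate 1 (0.0546). Of those that fell in Alb-R3, Pparg (limma adjusted p = 0.0854), Esrrg (0.0994), Nr1d2 (0.14), Nr2c1 (0.0919) and Nr2f2 (0.0501) did not pass without Alb-R3 CCl4 replicate 1, a fit in which 1 of the 34 tested rose and 3 fell. Of the 2 that rose, Ppard passed without it (0.0331) and Nr2f1, a low gene with 20.6, 5.86 and 9.62 normalized counts after CCl4 in Alb-R3, did not (0.122).

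**Figure D4:**
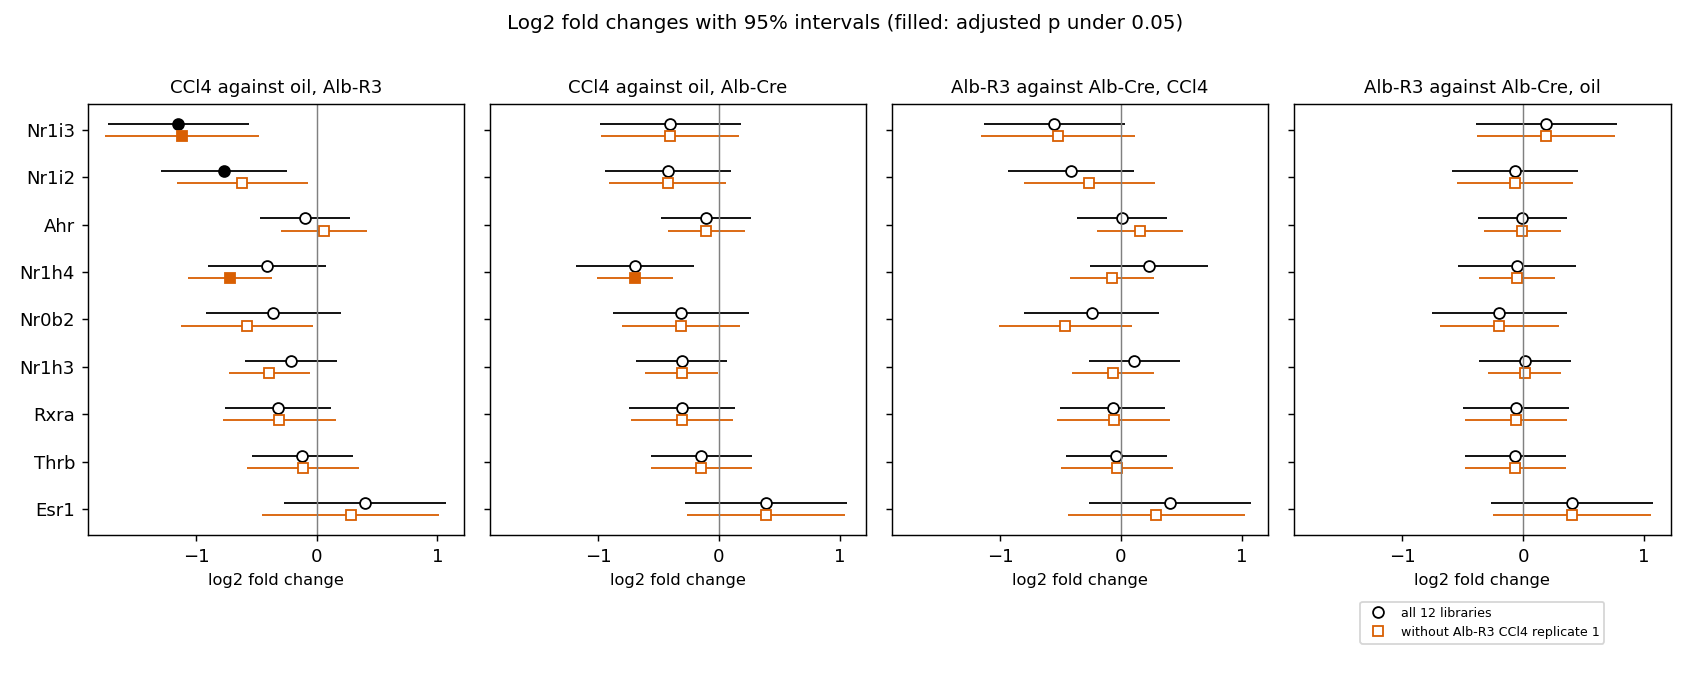
Log2 fold changes (horizontal axes) of the 9 genes with 95% intervals in the 4 comparisons, fitted with all 12 libraries (circles) and without Alb-R3 CCl4 replicate 1 (squares); filled symbols have a limma adjusted p under 0.05. With all libraries Nr1i3 and Nr1i2 are filled in Alb-R3, and without the library Nr1i3 and Nr1h4 are filled there and Nr1h4 in Alb-Cre.

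The effect of the genotype was asked after each treatment. The 2 genotype comparisons share their libraries with the CCl4 comparisons, so the 4 sets of values are not independent. No member differed between Alb-R3 and Alb-Cre after CCl4 (0.173% of all tested genes did) or after oil (0.207%), and no member had an unadjusted limma p under 0.05 in either. After CCl4, CAR had 3716, 3483 and 4555 normalized counts in Alb-R3 libraries and 5871, 6859 and 4629 in Alb-Cre libraries. It was the 1 member whose groups did not overlap downward (5.86% of all genes), by a narrow gap between 4555 and 4629, and its difference was -0.55 ± 0.27 (95% interval -1.14 to 0.03; limma adjusted p = 0.674). PXR differed by -0.41 (-0.93 to 0.11), FXR by 0.23 (-0.26 to 0.72) and SHP by -0.24 (-0.80 to 0.32). Without Alb-R3 CCl4 replicate 1 the value of FXR was -0.08 (-0.43 to 0.28) and that of SHP -0.46 (-1.01 to 0.09). Liver X receptor alpha, AHR, Rxra and Thrb differed by between -0.07 and 0.11 after CCl4, and Esr1 by 0.41 (-0.26 to 1.08).

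After oil, Esr1 had 528.5, 569 and 564 normalized counts in Alb-R3 libraries and 489, 384 and 389 in Alb-Cre libraries. It was the 1 member whose groups did not overlap upward (5.66% of all genes), with a difference of 0.40 ± 0.31 (95% interval -0.27 to 1.07; limma adjusted p = 1). The other 8 members lay between -0.20 for SHP and 0.19 for CAR. The interaction, which asks whether the CCl4 change differed between the genotypes, passed for none of the 20244 genes (0%; 1516 at an unadjusted limma p under 0.05, none of them a member). It was -0.74 ± 0.38 for CAR (95% interval -1.57 to 0.08; limma adjusted p = 0.735), so the call in Alb-R3 and its absence in Alb-Cre are not shown to differ. For the other members it lay between -0.34 for PXR and 0.28 for FXR. Over the 10 lists none of 154 tested genes passed in either genotype comparison or in the interaction (15 after CCl4, 11 after oil and 12 in the interaction at an unadjusted limma p under 0.05). Over all 20244 tested genes these counts were 1573, 1314 and 1516. In the lists the smallest p was that of Cyp7b1 after CCl4 (-2.09 ± 0.47; limma adjusted p = 0.154), of Mylip after oil (-1.02 ± 0.33; adjusted p = 0.414) and of Arl4c in the interaction (3.21 ± 0.76; adjusted p = 0.364).

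Levels were compared between genes by FPKM, which divides by transcript length. Over the 12 libraries Rxra averaged 120 FPKM and CAR 110, followed by liver X receptor alpha (58.5), SHP (57.5) and FXR (44.7). PXR averaged 20.3 FPKM, Thrb 10.1, AHR 8.92 and Esr1 6.63. Neighbours in this order overlapped over the 12 libraries, and Rxra was above CAR in 8 of 12. Within groups, Rxra was above CAR without overlap in the Alb-R3 CCl4 libraries (114 and 73.2 FPKM on average), whereas in the other 3 groups the 2 overlapped, and in Alb-R3 oil CAR was first (133 and 118 FPKM). FXR stood above PXR without overlap in 3 of the groups and overlapped with it in Alb-Cre CCl4, and PXR stood above Thrb in each of the 12 libraries. In mean FPKM 6 of the 8 members that are nuclear receptors were among the 10 highest of 49 receptors, a ranking led by Hnf4a (202 FPKM) followed by Rxra and CAR. The spread between libraries was widest for CAR, whose highest normalized count was 3.47 times its lowest, and narrowest for AHR, at 1.54 times.

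**Figure D5:**
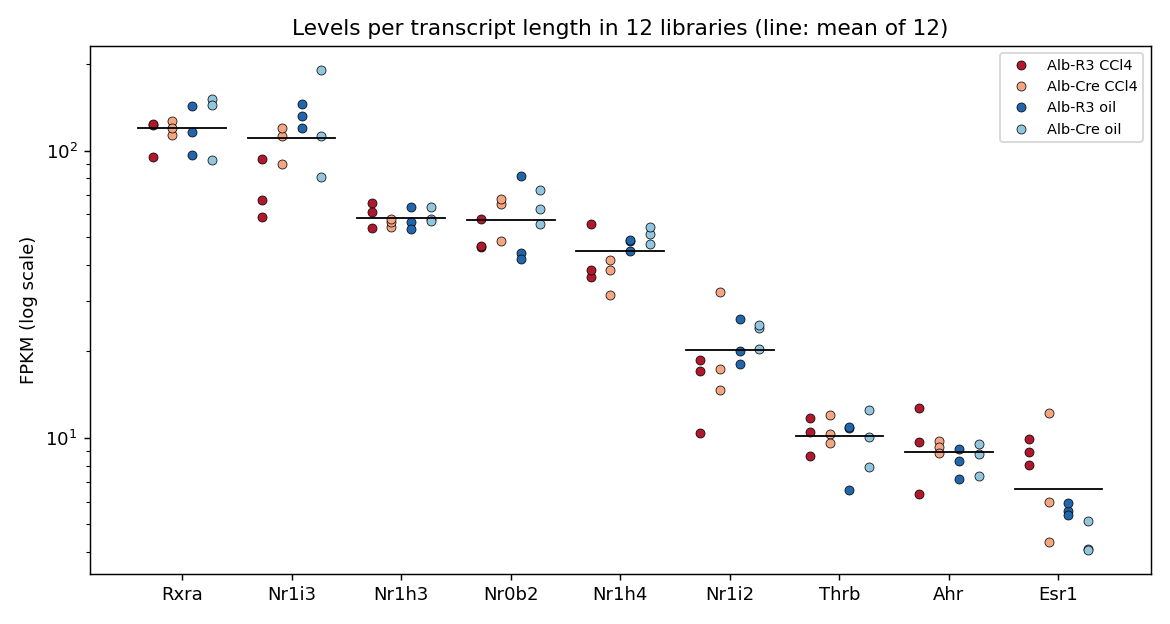
FPKM (log scale) of the 9 genes in order of their mean over 12 libraries (line); each point is a library, coloured by group. Rxra and Nr1i3 are at the top near 120 and 110 FPKM and Esr1 at the bottom with 6.63, and the Alb-R3 CCl4 points of Nr1i3 are on average its lowest group, at 73.2.

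The genes most like each member were named by the smallest mean absolute difference of centred log2 values over the 12 libraries among 9413 genes, a description in which all libraries and their scaling are shared. CAR was closest to Reep6 (0.176) and Snx32 (0.178), against a median of 0.498 over the genes, and PXR to Eci2 (0.129) and Pex11a (0.135). This median ran from 0.261 for AHR to 0.498 for CAR, so distances of different members, and of pairs among them, are not on 1 scale. FXR was closest to Zfp622 (0.115) and Psmg3 (0.119), SHP to Tbkbp1 (0.174) and Tmem35b (0.180), and liver X receptor alpha to Aimp1 (0.0505) and Tm2d3 (0.0670). AHR was closest to Poldip3 (0.0705) and Fam120a (0.0714), and Rxra to Hgsnat (0.0667) and Cln8 (0.0784). Esr1 was closest to Serpina3n (0.156) and Grn (0.170), and Thrb to Gpbp1 (0.0663) and Gpalpp1 (0.0698). Among the members themselves the closest pairs were Rxra with Thrb (0.152), AHR with Rxra (0.152) and AHR with Thrb (0.167). FXR with liver X receptor alpha came next (0.177). CAR and PXR were farther apart (0.360).

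Markers of other liver cells moved with CCl4 in Alb-R3, beside all the changes given above for that genotype. The 11 Kupffer cell and macrophage markers summed to between 2634 and 13935 normalized counts in Alb-R3 CCl4 libraries and between 895 and 1329 in Alb-R3 oil libraries, and 11 of 11 rose. Of endothelial markers 7 of 9 rose (sums 4185 to 4906 against 1717 to 1987) and of stellate cell and fibroblast markers 9 of 10 (1396 to 3833 against 653 to 835). Of cholangiocyte markers Spp1 and Krt19 rose, 2 of 6 tested (1036 to 6757 against 826 to 893, with Cftr at 0 in both groups and Krt19 at 0 after oil), and of lymphocyte markers Ptprc, 1 of 6 (44.0 to 290.2 against 15.3 to 30.9, with Nkg7 at 0 after oil). Without Alb-R3 CCl4 replicate 1 these counts were 9 of 11, 8 of 9, 10 of 10, 2 of 6 and 1 of 6; the cholangiocyte markers were then Spp1 and Epcam, and Krt19 did not pass (limma adjusted p = 0.0948). In Alb-Cre 3 of 10 stellate cell and fibroblast markers rose, Col1a1, Col3a1 and Reln (sums 2133 to 2892 after CCl4 against 1465 to 1625 after oil), 1 of 6 cholangiocyte markers, Spp1, and none of the Kupffer cell, endothelial or lymphocyte markers (1 of the 11 Kupffer cell markers at an unadjusted limma p under 0.05 and none of the others). Of these Alb-Cre calls, that of Col1a1 held in each of the 24 alternatives. That of Col3a1 was lost without any 1 of the 6 Alb-Cre libraries (limma adjusted p from 0.0559 to 0.092), that of Reln without any 1 of those 6 or Alb-R3 oil replicate 1 or 3 (0.0548 to 0.149), and that of Spp1 without Alb-Cre CCl4 replicates 1 and 2 and oil replicate 3 of that genotype, 1 at a time (0.0764 to 0.0848). No hepatocyte marker of 8 passed in either genotype, with medians of -0.14 in Alb-R3 and 0.13 in Alb-Cre. The SE of Alb was 1.25 in both genotypes, from the shared estimate of the spread fitted with the mean-variance trend. Alb ran from 1133000 (Alb-R3 CCl4 replicate 1) to 2422000 normalized counts (Alb-Cre oil replicate 1), a log2 range smaller than that SE. The SE thus exceeded the spread of the Alb values themselves, and the part of the trend in it was not tested. The lack of a call therefore does not show that the hepatocyte markers were unchanged. Serpina1c had 193100, 228500 and 172400 normalized counts in Alb-R3 CCl4 libraries, against 357600, 359500 and 375200 in Alb-R3 oil libraries. These groups did not overlap. Ttr (169700, 187800 and 144400 against 262400, 230400 and 316700) and Apoa1 (327800, 244400 and 201100 against 364200, 384000 and 522200) were also lower without overlap. The Alb-R3 groups of Alb, Trf, Cps1, Hnf4a and Fgb overlapped. In Alb-Cre, Serpina1c was lower without overlap as well (301900, 312100 and 260700 against 419000, 441500 and 332700), while Ttr and Apoa1 overlapped. Between Alb-R3 and Alb-Cre no marker of any list passed after CCl4 or after oil. After CCl4, 10 of 11 Kupffer cell markers had an unadjusted limma p under 0.05, with a list median of 1.56, higher in Alb-R3. After oil, 8 of 9 endothelial, 8 of 10 stellate cell and fibroblast and 5 of 11 Kupffer cell markers had such a p. Their list medians were -1.11, -1.14 and -1.03, lower in Alb-R3. In Alb-Cre, endothelial sums were 3559 to 4862 after CCl4 and 2749 to 3971 after oil. No marker passed in the interaction. There 11 of 11 Kupffer cell, 6 of 9 endothelial and 5 of 10 stellate cell and fibroblast markers had such a p. When Alb-R3 CCl4 replicate 1 was left out, 5 markers passed downward in Alb-R3 against Alb-Cre after oil. They were the endothelial markers Lyve1, Clec4g and Eng and the fibroblast markers Dcn and Col3a1. The part of these other cells in the results was not tested, and in such bulk samples fewer cells of a type and less RNA per cell cannot be told apart.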

How the data were processed

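For each gene and library the authors deposited a normalized count and an FPKM value in 1 table, per the file headers. Per the submitters' processing notes, kallisto (version 0.44.0), edgeR and GRCm38.p6 were used, and no step is tied to a tool. The deposited normalized count is treated as a signal: 70.2% to 74.4% of low values per library were whole multiples of 1 read (tolerance 0.02), so no count model was used, and depth is an estimate. The authors' FPKM values, a unit per transcript length and library total, served to compare genes.

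Log2 of the normalized count plus 1 was fitted with limma 3.58.1 under R 4.3.3, using the mean-variance trend and a single 4-group model of 12 libraries. Genes reaching 1 in 3 or more libraries (20244) were tested, and p-values were Benjamini-Hochberg adjusted over them (threshold 0.05). Fold changes are on this log2 scale and understate those of low genes; their errors are SE. The fit was tested on simulated data. Alternatives were other scalings, filters and pseudocounts, the FPKM columns, no trend, a replicate block, library weights, the 6 libraries compared, and leaving out each library. Gene positions are GENCODE M21 on GRCm38.

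Members and gene lists were chosen with earlier results of these data known. The genes named from a list are up to 4 past the threshold in each direction, those of largest change, and where none passed in a comparison the gene of smallest p; others are named as chosen after their values were seen. Some genes of these lists are not reported here.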

Additional observations from a re-analysis of the deposited data

How the results depend on the processing

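With CCl4 in Alb-R3, where 2 of the 9 genes passed, the count was 0 with quantile normalization and with equal totals without mitochondrial genes, 1 without the trend, without a filter, with the FPKM columns and with the replicate block, 3 with library weights, and 1 to 2 when 1 library was left out. The cause was not tested. With CCl4 in Alb-Cre, where none passed, it was 2 with library weights, 1 in the 6 libraries alone and 0 to 1 when 1 library was left out. In both genotype comparisons and the interaction it was 0 under each alternative run. Among values of single members under an alternative, 966 stayed on their side of the threshold with the same sign, 7 came to pass, 17 no longer passed, and 81 changed sign with neither value past the threshold. None reversed a call. The replicate number was tried as a block although same-numbered libraries did not deviate together (correlations from -0.183 to 0.196). Among the members it changed 1 call, that of Nr1i2 in Alb-R3 (limma adjusted p = 0.0547). Of the list genes named, it lost Cyp2c29 (0.0575), Nr1d2 (0.0522), Nr2c1 (0.0555) and Nr2f1 (0.0598) in Alb-R3, and Gper1 (0.0606) and Reln (0.0665) in Alb-Cre. Over all genes it gave 1978 higher and 1113 lower in Alb-R3 and 566 and 147 in Alb-Cre. Scaling lost further named calls. In Alb-R3, equal totals without mitochondrial genes lost Slco1b2 (limma adjusted p = 0.0755), Lipc (0.0733), Ppargc1b (0.132) and Pparg (0.0925). Nr1d2 (0.122), Nr2c1 (0.256) and Nr2f2 (0.456) were lost there too. The FPKM columns lost all of these (0.0846 to 0.264). In Alb-Cre, quantile normalization lost Ppard (0.0729), Cyp2a5 (0.0609), Col3a1 (0.0717), Reln (0.0551) and Spp1 (0.0597). Over all genes, leaving out 1 library gave 2137 to 3782 genes in Alb-R3 (3598 with all) and 525 to 1431 in Alb-Cre (900 with all). Higher against lower genes were 2198 and 1400 in Alb-R3, 1723 and 1640 with quantile normalization, 4644 and 500 with equal totals without mitochondrial genes, and 3120 and 590 with the FPKM columns. In Alb-Cre they were 700 and 200, 547 and 234, 1176 and 116, and 1229 and 107. Library weights gave 2703 genes in Alb-Cre, and 103 after CCl4 and 663 after oil between genotypes, against 35 and 42. Depth per library is an estimate, and 3 libraries a group limit the precision of each value.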
